A study of Mus musculus with 161 samples.

Results

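The 57 bone marrow (BM) monocytes of the series were set against 49 common monocyte progenitors (cMoP) of the same tissue, gene by gene across the whole transcriptome, which uses 106 of its 161 cells. Each library is 1 cell captured on the Fluidigm C1 system, a microfluidic chip that lyses single cells and copies their polyadenylated RNA into cDNA. All cells came from untreated C57BL/6 mice, whose age and sex the labels do not give. BM monocytes were sorted as lineage-negative cells with the surface markers CD117-, CD115+, CD135- and Ly6C+, and cMoP by the same gate but as CD117+ cells. 38 blood monocytes, sorted as CD115+ CD11b+ cells with high Ly6C, were kept aside as cells that did not enter the comparison. Of the 66 libraries labelled as cMoP, 11 with over 15% of TPM (the abundance unit of the table, scaled by transcript length and to the same total in each cell) in mitochondrially encoded rows and 6 with no flow cell in their label were left out. The left-out libraries with much mitochondrial RNA held 16.6% to 47.7%, and the highest share among the cells compared was 9.47% in a BM monocyte and 10.4% in a cMoP. No label names an animal, so each population is 1 sample and no difference below has a replicate check or a test. All 49 cMoP came from 1 flow cell and lane and all BM monocytes from another, so population and sequencing run cannot be told apart.

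The cMoP is a dividing progenitor restricted to monocyte fate, which resides in bone marrow and carries the receptor tyrosine kinase CD117 (Kit) at its surface. It descends from granulocyte-monocyte progenitors, in which the enzymes of the primary (azurophilic) granules are made, and gives rise to Ly6C-high monocytes, which divide little, leave the marrow through the chemokine receptor CCR2 and enter tissues.

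The genes behind the sort gate were read first. Kit was above 10 TPM in 0 of 57 BM monocytes and in 22 of 49 cMoP. Csf1r, which encodes CD115, was above 10 TPM in 71.9% of BM monocytes, against 75.5% of cMoP, and Ly6c2 in every cell of both. Flt3, which encodes CD135, was above 10 TPM in 0 BM monocytes and 3 cMoP. Monocyte libraries were less complex: a median of 4719 genes lay above 1 TPM in BM monocytes and 6690 in cMoP. Ribosomal protein rows held a median of 6.96% of a BM monocyte's TPM and 12.1% of a cMoP's. Markers of 11 other blood cell types were read in both populations. For the lists of B, T and natural killer cells, macrophages, megakaryocytes, eosinophils, mast cells with basophils, and erythroid cells, the median member was above 10 TPM in no cell of either population. Some members were present in more cells. Hba-a2 was above 10 TPM in 3.51% of BM monocytes, against 22.4% of cMoP. Hbb-bs stood at 0% of BM monocytes and 14.3% of cMoP, and Hbb-bt at 0% and 12.2%. Mcpt8, of the basophil list, stood at 0% of BM monocytes and 16.3% of cMoP. Spic, of the macrophage list, stood at 29.8% of BM monocytes and 20.4% of cMoP. Lck, of the T cell list, stood at 14.04% of BM monocytes and 2.04% of cMoP. For conventional and plasmacytoid dendritic cells the median member was above 10 TPM in 1.75% and 3.51% of BM monocytes and 2.04% and 4.08% of cMoP. Of the plasmacytoid list Irf7 was above 10 TPM in 54.4% of BM monocytes, against 8.16% of cMoP, Tcf4 in 33.3% of BM monocytes against 61.2% of cMoP, and Bst2 in 28.1% of BM monocytes against 51.02% of cMoP. Ngp, of neutrophil secondary granules, was listed at 0 in every cell, and 12 of 19 neutrophil genes were above 10 TPM in at most 10% of both populations. Others of that list were not low: Ly6g was above 10 TPM in 86.0% of BM monocytes, against 75.5% of cMoP, Mmp8 in 45.6% of BM monocytes against 8.16% of cMoP, Cd177 in 43.9% of BM monocytes against 0% of cMoP, and Csf3r in 35.1% of BM monocytes against 67.3% of cMoP. Reads of Ly6g and its close relatives can be shared. The summed level of the 19 ran from 4.60 to 2489 TPM with a median of 399 TPM in BM monocytes, and from 2.54 to 1137 TPM with a median of 131 TPM in cMoP, and the part of such RNA in the results was not tested. Of the Y-linked genes Ddx3y was above 10 TPM in 40.4% of BM monocytes, against 77.6% of cMoP, while Xist was above it in no cell. The exception past the limit used below was Cd79b, of the B cell list, above 10 TPM in 5.26% of BM monocytes, against 61.2% of cMoP.

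A gene counted as present in a cell above 10 TPM, and the 12025 genes that exceeded 1 TPM in 10% of cells or more were compared. Very few genes behaved as switches in nearly all cells. No gene was above 10 TPM in at least 90% of BM monocytes and at most 10% of cMoP (0% of the genes compared). 6 genes (0.0499%) were above it in at most 10% of BM monocytes and at least 90% of cMoP. Mpo, Cst7 and Ms4a3 were on the primary granule list. The others were the serine synthesis enzyme gene Phgdh, the DNA polymerase alpha subunit gene Pola2 and the chromatin remodeller gene Hells. The granule list was chosen with earlier results of these data known and is not confined to granule contents: Ms4a3 encodes a membrane protein. Where the share of cells differed by at least 50 percentage points, a gene is called gained or lost in BM monocytes below. 49 genes (0.407%) were gained and 695 (5.78%) were lost. Counts of called members in the lists below are to be read beside these shares. Over all compared genes the median difference in share was -9.60 points. The median difference in mean log2(TPM + 1), BM monocytes minus cMoP, was -0.62. A lower mean on this scale was thus the common case, while the median log2 ratio of mean TPM was -0.021. Means called higher or lower below are on the log2(TPM + 1) scale. On it several lists were lower in every member, such as all 38 proteasome genes and all 47 mitochondrial ribosomal protein genes.

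**Figure D1:**
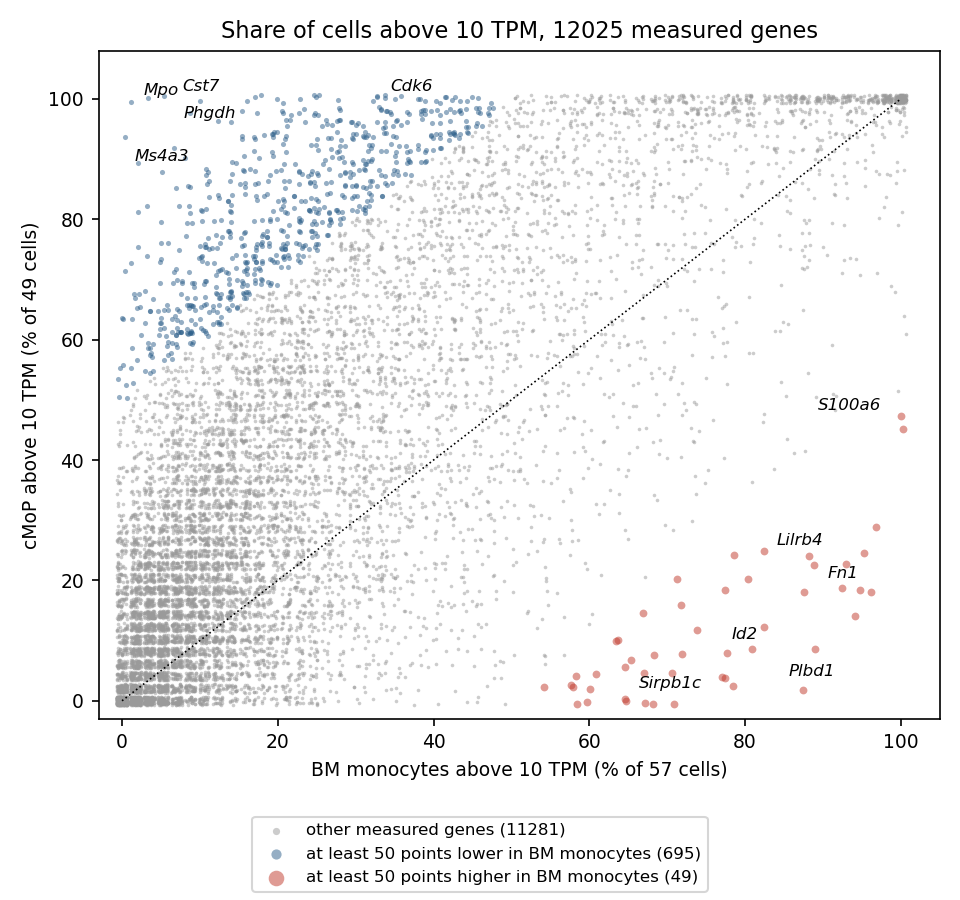
Share of BM monocytes (x axis, % of 57 cells) and of cMoP (y axis, % of 49 cells) above 10 TPM for each of 12025 genes, with points shifted at random by less than 1 point so that they do not hide each other. The 695 lost genes fill the upper left, with 6 of them in its corner, while the corner at the lower right is empty and the 49 gained genes lie left of it or above it.

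BM monocyte libraries held fewer genes above 10 TPM, a median of 2747 against 4498 in cMoP, and the part of this in the excess of lost genes was not tested. When a gene counted as present only among the 3000 highest rows of a cell, which gives every cell the same number of present rows, 200 genes (1.66%) were gained and 183 (1.52%) lost. Gained genes then made up 52.2% of the called genes, against 6.59% above 10 TPM. All 49 gained genes stayed gained by rank, and 183 of the 695 lost genes stayed lost. The cut at 3000 rows is looser than 10 TPM in the median BM monocyte and stricter in the median cMoP. It thus favours keeping gained over lost genes by its definition. An equal number of present rows per cell also draws the numbers on both sides together, so neither outcome is a separate check. Among the 33 BM monocytes and 7 cMoP with 4500 to 6000 genes above 1 TPM, 123 genes were gained and 454 lost, 21.3% of them gained. The number of genes on either side depends on how presence is defined, and counts by rank are given beside the gene groups below. Those counts are to be read beside the 1.66% gained and 1.52% lost by rank over all compared genes.

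**Figure D2:**
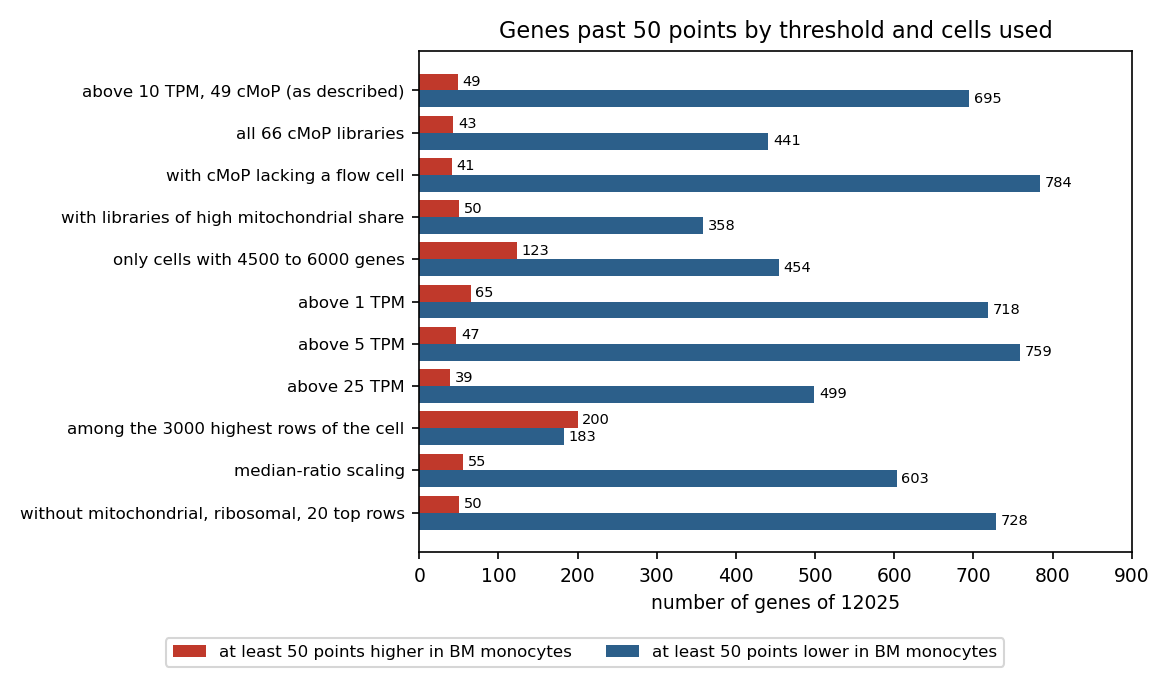
Number of the 12025 genes (x axis) that were gained (upper bar) or lost (lower bar) in BM monocytes under each threshold, scaling or choice of cells (rows). Lost genes outnumber gained ones in every row except that of the 3000 highest rows per cell, with 200 gained and 183 lost.

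Mpo, on the list of primary granule proteins, had the widest gap of any named gene. 9 of the 20 genes of this list, 18 of which passed the filter on low values, were lost and 0 gained, and the same number was lost by rank. On the log2 scale 18 of the 20 had a lower mean and 2 a raised one, Lyz2 (lysozyme) among these 2. The summed level of the list did not fall. Its medians were 55578 TPM for BM monocytes and 24917 TPM for cMoP, with overlapping ranges. For Lyz2 alone the medians were 52936 TPM for BM monocytes and 637 TPM for cMoP. Mpo, the myeloperoxidase that makes hypochlorous acid (chr11:87793581-87804413, plus strand of GRCm38, GENCODE vM21), ran from 0 to 89.7 TPM with a median of 0 TPM in BM monocytes and from 917 to 32081 TPM with a median of 11464 TPM in cMoP. 1 BM monocyte was above 10 TPM (1.75%, 0.0444 to 9.39%; all intervals here are exact 95% intervals that cover the counting of cells only), against 49 of 49 cMoP (100%, 92.7 to 100%). No BM monocyte reached the lowest cMoP. Elane, neutrophil elastase, was not so complete: it ran from 0 to 1335 TPM with a median of 0 TPM in BM monocytes and from 101 to 20484 TPM with a median of 4915 TPM in cMoP, and 10 BM monocytes stayed above 10 TPM. Prtn3, proteinase 3, ran from 0 to 476 TPM with a median of 0 TPM in BM monocytes and from 492 to 3743 TPM with a median of 1762 TPM in cMoP, so that its highest BM monocyte lay just under the lowest cMoP. The difference in mean log2(TPM + 1), BM monocytes minus cMoP, was -13.24 for Mpo, with means of 0.14 ± 0.88 in BM monocytes and 13.38 ± 0.90 in cMoP (SD over 57 and 49 cells), -9.15 for Prtn3 and -10.60 for Elane. Ctsg, cathepsin G, was above 10 TPM in 6 BM monocytes and all 49 cMoP, which put it just outside the switched-off genes. Cst7, the protease inhibitor cystatin F, was above 10 TPM in 2 BM monocytes (3.51%, 0.428 to 12.1%) and in all 49 cMoP. Ms4a3, a tetraspanning membrane protein gene whose expression history the study uses as a lineage trace (chr19:11629496-11640851, minus strand), was above 10 TPM in 0 of 57 BM monocytes (a count of 0 leaves room for up to 5.26%, a limit of 3 cells), and in 46 of 49 cMoP (93.9%, 83.1 to 98.7%). Its 3 cMoP below the limit included one at 1.18 TPM. Alas1, Nkg7 and Serpinb1a were the other lost members. Counted over the list, a BM monocyte held 2 to 10 (median 5) of the 20 genes above 10 TPM, and a cMoP 11 to 17 (median 15). The ranges did not overlap in the cells compared. The left-out cMoP with much mitochondrial RNA held 5 to 14 (median 10), which overlaps the BM monocytes. Those without a flow cell held 15 to 18 (median 17.5).

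**Figure D3:**
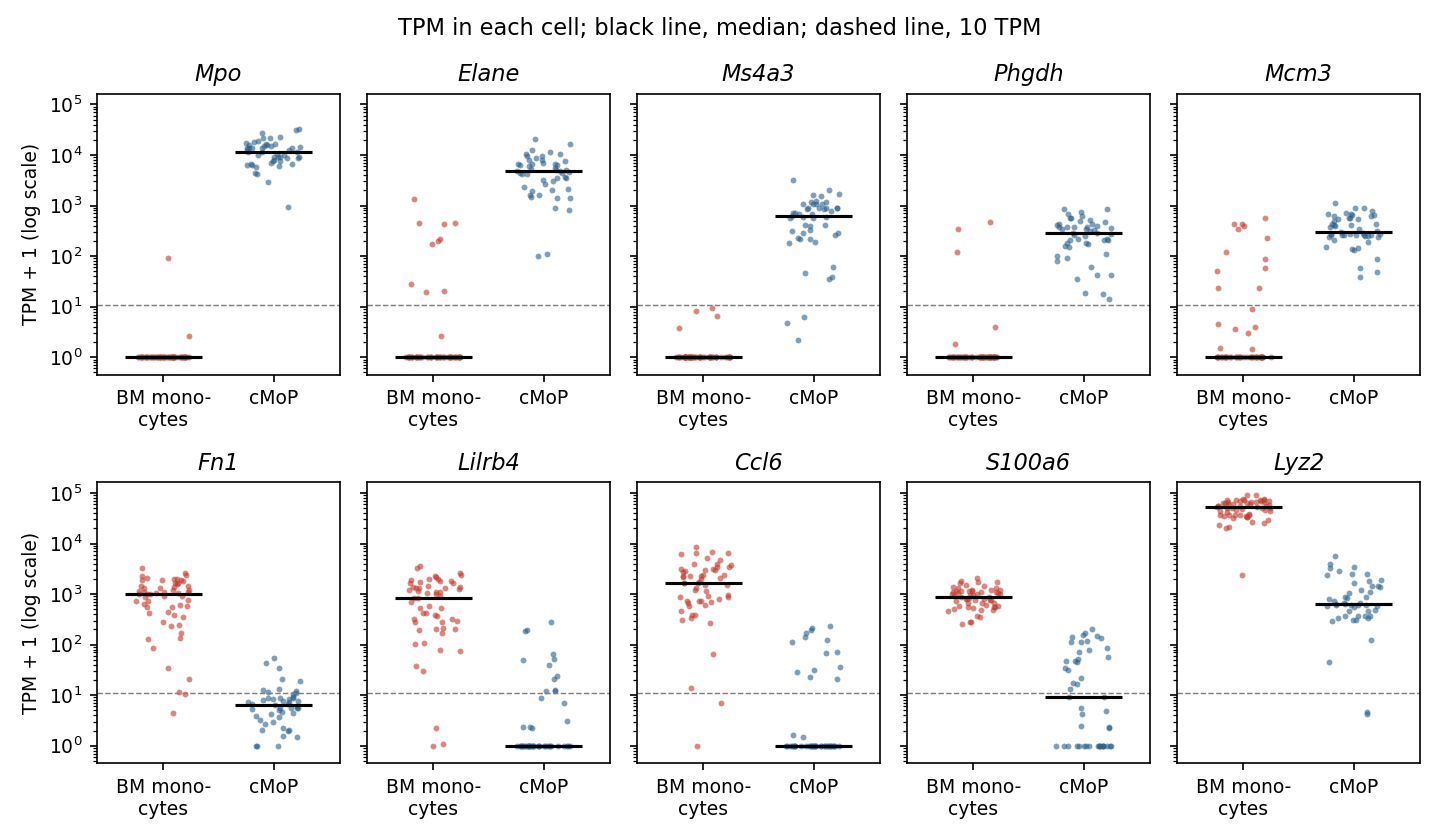
TPM + 1 (y axis, log scale) in each BM monocyte (left) and cMoP (right) for 5 genes lower and 5 genes higher in BM monocytes, with the median as a black line and 10 TPM as a dashed line. Mpo and S100a6 show no overlap between the populations, Elane and Mcm3 keep a minority of BM monocytes within the range of the cMoP, and Lyz2 is present in both but far higher in BM monocytes.

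Above 10 TPM, DNA replication had the largest share of lost genes of all lists (70%). By rank the primary granule list, with 9 of 20 lost, had a larger share. 35 of 50 replication and fork repair genes were lost, 0 were gained, and all 50, which all passed the filter, had a lower mean on the log2 scale. By rank, 18 were lost. The hexameric helicase that unwinds DNA was lost whole: Mcm2, Mcm3, Mcm4, Mcm5, Mcm6 and Mcm7 all passed 50 points. Mcm3 ran from 0 to 579 TPM with a median of 0 TPM in BM monocytes and from 37.4 to 1099.8 TPM with a median of 294 TPM in cMoP, and was above 10 TPM in 12 of 57 BM monocytes, against 49 of 49 cMoP. Mcm5 was above 10 TPM in 17.5% of BM monocytes, against 97.96% of cMoP. Pola2, a subunit of the polymerase that starts new strands, was above 10 TPM in 5 BM monocytes (8.77%, 2.91 to 19.3%) and 48 cMoP. Its levels were low even in cMoP, with a median of 3.06 TPM in BM monocytes against 38.03 TPM in cMoP, and by rank its shares were 26.3% in BM monocytes and 48.98% in cMoP. Prim1, the primase subunit that lays down RNA primers, was above 10 TPM in 6 BM monocytes and 43 cMoP. Hells, a helicase needed for DNA methylation, was above 10 TPM in 4 BM monocytes and 45 cMoP (91.8%, 80.4 to 97.7%). Cdca7, its binding partner, was present in 9 BM monocytes and 48 cMoP.

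Supply of DNA building blocks followed. 18 of 30 nucleotide synthesis genes were lost (9 by rank) and 0 were gained. Both ribonucleotide reductase subunits were among them. Rrm1 ran from 0 to 783 TPM with a median of 0.240 TPM in BM monocytes and from 12.4 to 631 TPM with a median of 188 TPM in cMoP, and Rrm2 from 0 to 1367 TPM with a median of 0 TPM in BM monocytes and from 0 to 1839 TPM with a median of 607 TPM in cMoP. Dut, the dUTPase that keeps uracil out of DNA, was above 10 TPM in 14.04% of BM monocytes, against 95.9% of cMoP. Tk1, thymidine kinase of S phase, was above 10 TPM in 11 BM monocytes and 46 cMoP. Along the purine pathway Ppat, Gart, Pfas, Paics, Adsl and Atic were all lost. The serine and one-carbon genes that feed this pathway lost 7 of 16 (4 by rank). Phgdh, the first enzyme of serine synthesis, ran from 0 to 468 TPM with a median of 0 TPM in BM monocytes and from 12.96 to 849 TPM with a median of 283 TPM in cMoP and was above 10 TPM in 3 of 57 BM monocytes (5.26%, 1.10 to 14.6%). Psat1, the next enzyme, was above 10 TPM in 15.8% of BM monocytes, against 87.8% of cMoP. The mitochondrial serine carrier gene Sfxn1 was present in 5 BM monocytes and 40 cMoP.

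Fewer mitotic than replication genes were lost. 11 of 50 passed the limit (5 by rank), and all 50 had a lower mean in BM monocytes. Cdk1, the kinase that drives entry into mitosis, was above 10 TPM in 14 BM monocytes and 41 cMoP. Where it was present its median was 338 TPM in those BM monocytes and 261 TPM in those cMoP. Top2a, topoisomerase II alpha, ran from 0 to 1497 TPM with a median of 4.70 TPM in BM monocytes and from 2.28 to 1802 TPM with a median of 420.4 TPM in cMoP. Stmn1, which destabilises microtubules, was above 10 TPM in 27 BM monocytes and all 49 cMoP, where it ran from 558 to 3551 TPM with a median of 1676 TPM. Mitotic genes were unevenly spread over the BM monocytes. A BM monocyte held 1 to 42 (median 4) of the 50 mitotic genes above 10 TPM and a cMoP 9 to 48 (median 28), and 18 of 57 BM monocytes reached the lowest cMoP count of 9. Of the 50 replication genes a BM monocyte held 0 to 40 (median 6), a cMoP 21 to 46 (median 39), and 8 BM monocytes reached the lowest cMoP count of 21.

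Among cell cycle regulators 4 of 32 were lost (3 by rank) and 0 gained (2 by rank). 19 had a lower and 11 a higher mean, with a median difference of -0.29 against -0.62 for all compared genes. Btg2, also on this list, was among the higher ones, at 85.96% of BM monocytes and 40.8% of cMoP. Ccnd2, cyclin D2, was at 0.300 TPM or less in every BM monocyte and above 10 TPM in 31 of 49 cMoP (63.3%, 48.3 to 76.6%). Cdk6, its kinase partner, was above 10 TPM in 19 BM monocytes and all 49 cMoP, where it ran from 126 to 1871 TPM with a median of 429 TPM. Cdk4, the related kinase, was above 10 TPM in 23 BM monocytes and all 49 cMoP. Ccne2, cyclin E2, was above 10 TPM in 3 BM monocytes and 32 cMoP.

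Genes of ribosome production were lost as well. 25 of 52 ribosome biogenesis genes were lost and 0 were gained. All 52 had a lower mean, as did all 42 translation factor genes and all 41 chaperone and import genes. By rank 7 were lost. Nop58, a core protein of box C/D small nucleolar ribonucleoproteins, ran from 0 to 498 TPM with a median of 0.770 TPM in BM monocytes and from 80.1 to 842 TPM with a median of 304 TPM in cMoP, with 9 BM monocytes and all 49 cMoP above 10 TPM. Mybbp1a, a nucleolar protein, was above 10 TPM in 2 BM monocytes and 40 cMoP. Nolc1, a nucleolar phosphoprotein, was present in 5 BM monocytes and 42 cMoP, and Lyar, a nucleolar zinc finger protein, in 6 BM monocytes and 43 cMoP. A BM monocyte held 2 to 24 (median 9) of the 52 genes above 10 TPM and a cMoP 24 to 42 (median 34). Only 1 BM monocyte reached the lowest cMoP count of 24. 5 of 15 long noncoding and small nucleolar RNA host transcripts were lost (2 by rank): Snhg1, Snhg3, Snhg4, Snhg5 and Snhg6. Snhg5 was above 10 TPM in 22.8% of BM monocytes, against 89.8% of cMoP.

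The ribosome itself behaved otherwise. 1 of 50 cytosolic ribosomal protein genes was lost (0 by rank), Rpl5, at 26.3% of BM monocytes and 89.8% of cMoP. The median member was above 10 TPM in every cell of both populations, yet 49 of the 50 had a lower mean in BM monocytes, with a median difference of -1.18 on the log2 scale. Under median-ratio scaling, which moved the median of all compared genes to -0.51, the list stood at -0.86. Retroposed copies of ribosomal protein genes can take part of these reads, so values of single members are uncertain.

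Translation factors, their tRNA supply and protein folding lost members too. 13 of 42 translation factors were lost (2 by rank), among them Eif4e, the cap-binding protein, above 10 TPM in 33.3% of BM monocytes, against 97.96% of cMoP. 8 of 23 aminoacyl-tRNA synthetase genes were lost (4 by rank). Farsa, a phenylalanyl-tRNA synthetase subunit, was above 10 TPM in 10 BM monocytes and 44 cMoP, and Eprs, which charges glutamate and proline tRNAs, in 22 BM monocytes and 49 cMoP. 14 of 41 chaperone and import genes were lost (5 by rank). Hspd1, the mitochondrial chaperonin, ran from 0 to 552 TPM with a median of 0 TPM in BM monocytes and from 6.80 to 1036 TPM with a median of 403 TPM in cMoP. The cytosolic chaperonin subunit gene Cct3 was above 10 TPM in 28.1% of BM monocytes, against 97.96% of cMoP. Splicing factors lost 12 of 50 (5 by rank), including Sf3b3 at 14.04% of BM monocytes and 81.6% of cMoP.

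Losses in other lists ran from well above to below the 5.78% of all genes. 7 of 31 histone, HMG and DNA methylation genes (22.6%) were lost (4 by rank), among them Ezh2, the methyltransferase of Polycomb complexes, in 12 BM monocytes and 45 cMoP. 4 of 23 tubulins and microtubule regulators were lost (4 by rank), with Tuba4a in 22 BM monocytes and 49 cMoP. Of 38 proteasome genes 6 were lost (1 by rank), and of 40 secretory pathway genes 5 (3 by rank). Pdia4, a disulfide isomerase of the endoplasmic reticulum, was above 10 TPM in 10 BM monocytes and 43 cMoP. Of 38 solute carriers 3 (7.89%) were lost (1 by rank), including the nucleoside transporter gene Slc29a1, in 7 BM monocytes and 37 cMoP, and the glutamine transporter gene Slc1a5, in 4 BM monocytes and 30 cMoP. 1 of 27 cell death genes (3.70%) was lost, with 0 lost and 1 gained by rank. This was Bid, a BH3-only activator of apoptosis, above 10 TPM in 17 BM monocytes and 41 cMoP. Bcl2, its antagonist, was above 10 TPM in 1 BM monocyte and 22 cMoP.

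In energy metabolism the losses were unequal. 10 of 30 citric acid cycle genes were lost (3 by rank), with Idh3a, a subunit of the isocitrate dehydrogenase of the cycle, above 10 TPM in 17.5% of BM monocytes, against 91.8% of cMoP. The 67 nuclear genes of the respiratory chain lost 5 (1 by rank), a share of 7.46% that is near that of all genes, although all 67 had a lower mean and a median difference of -2.09. Mitochondrial ribosomal protein genes lost 9 of 47, but 0 by rank. Glycolysis lost 1 of 27 (3.70%, 1 by rank), Hk3, a hexokinase of white blood cells, at 19.3% of BM monocytes and 89.8% of cMoP. Ldha, lactate dehydrogenase A, was above 10 TPM in 33 BM monocytes and all 49 cMoP, and ran from 0.600 to 2229 TPM with a median of 20.04 TPM in BM monocytes and from 267 to 3158 TPM with a median of 1275 TPM in cMoP. Of sterol and fatty acid synthesis 2 of 33 (6.06%), close to the share of all genes, were lost (1 by rank) and 0 gained (1 by rank). Fdps, which makes farnesyl diphosphate, was above 10 TPM in 21.1% of BM monocytes, against 95.9% of cMoP.

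**Figure D4:**
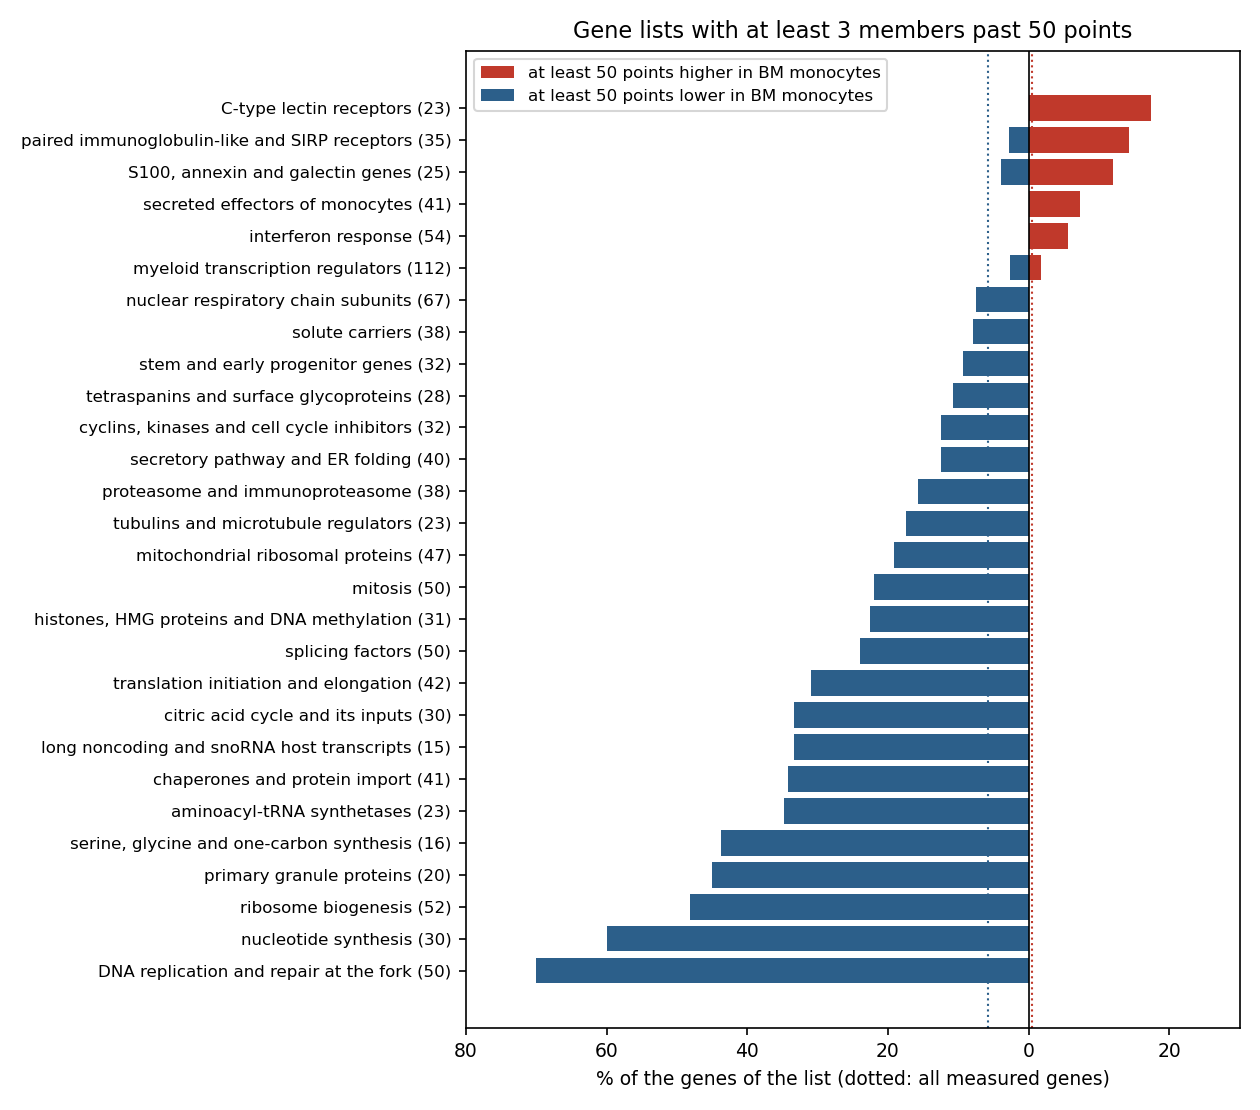
Percentage of the genes of each list (rows, number of genes in brackets) that were gained (red, to the right) or lost (blue, to the left) in BM monocytes, for lists with at least 3 such members, with the percentages over all 12025 genes as dotted lines. Replication, nucleotide synthesis, ribosome biogenesis, primary granules and serine synthesis reach furthest left, and the lists that reach right hold surface receptors, S100 proteins, secreted effectors and interferon response genes.

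Of 32 genes of earlier progenitors 25 had a lower and 3 a higher mean in BM monocytes. 3 (9.38%, against 5.78% of all genes) were lost (2 by rank): Cd34, a sialomucin of stem and progenitor cells, at 21.1% of BM monocytes and 75.5% of cMoP, Myb and Cdk6. Kit itself, at 0% of BM monocytes and 44.9% of cMoP, did not pass 50 points. Tfrc, the transferrin receptor through which dividing cells take up iron, was above 10 TPM in 1 BM monocyte and 24 cMoP, short of the same limit. Pecam1, an adhesion molecule known as CD31, was lost, in 1 BM monocyte and 31 cMoP. Its adhesion list had 2 of 33 lost (6.06%, close to the 5.78% of all genes) and 0 gained, but 0 lost and 2 gained by rank. Slc19a1, which imports reduced folate, was above 10 TPM in 0 BM monocytes and 23 cMoP. Igfbp4, which binds insulin-like growth factors, was above 10 TPM in 1 BM monocyte and 40 cMoP. Bzw2, a regulator of translation initiation, was present in 1 BM monocyte and 44 cMoP, 1 cell short of the switched-off genes. Gria3, a glutamate receptor subunit gene, lay just outside them as well, at 8.77% of BM monocytes and 89.8% of cMoP.

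Sequence upstream of the start sites was read for the letters that replication and myeloid factors are known to bind. Windows of 250 bases before the start came from RefSeq on GRCm38.p6, which holds 27025 promoters, 539 of them of lost genes, 34 of gained genes and 7785 of compared genes. The E2F letters TTTCCCGC or TTTGGCGC on either strand stood in 29 lost genes (5.38%), in 0 of the 34 gained genes, in 2.76% of compared genes and in 1.35% of all promoters. In the replication list 7 of 39 promoters (17.9%) held them. The PU.1 letters GAGGAAGT stood in 2.44% of all promoters and in 3 of 17 of the granule list (17.6%), those of Mpo, Elane and Prtn3. They also stood in 6 of 47 ribosome biogenesis promoters (12.8%) and in 2.23% of lost promoters. For Mpo they began 224 bases before the start, and for the gained receptor genes Pira2 and Pirb 148 and 120 bases before it. C/EBP letters TTGCNNAA stood in 4 of 34 gained promoters (11.8%) and 9.55% of all, and the E-box letters CACGTG in 10.0% of lost promoters, 8.57% of those compared and 6.05% of all. Matches were counted for each motif on its own, also where motifs overlap, and a match describes these letters alone.

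The 120 bases before the start are shown for 4 lost genes with E2F letters, for the lost neighbours Elane and Prtn3 with PU.1 letters, and for the gained receptor gene Klra2 with C/EBP letters, each 5′ to 3′ on the strand of its gene with the letters, or their reverse complement, in capitals. The windows are chr1:128359706-128359825 on the minus strand for Mcm6, chr19:38930870-38930989 on the plus strand for Hells, chr2:72476099-72476218 on the plus strand for Cdca7, chr1:59684886-59685005 on the plus strand for Nop58, chr10:79886192-79886311 on the plus strand for Elane, chr10:79879547-79879666 on the plus strand for Prtn3 and chr6:131247363-131247482 on the minus strand for Klra2.
Mcm6: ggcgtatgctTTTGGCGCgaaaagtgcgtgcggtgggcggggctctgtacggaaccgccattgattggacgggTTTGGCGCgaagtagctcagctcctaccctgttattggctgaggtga
Hells: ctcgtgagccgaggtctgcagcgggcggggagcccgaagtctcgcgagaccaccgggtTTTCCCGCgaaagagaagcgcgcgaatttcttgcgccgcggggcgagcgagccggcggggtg
Cdca7: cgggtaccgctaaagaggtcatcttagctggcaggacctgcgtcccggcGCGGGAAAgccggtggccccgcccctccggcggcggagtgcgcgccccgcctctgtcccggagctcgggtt
Nop58: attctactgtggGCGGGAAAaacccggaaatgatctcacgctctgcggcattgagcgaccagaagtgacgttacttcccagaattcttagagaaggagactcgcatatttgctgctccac
Elane: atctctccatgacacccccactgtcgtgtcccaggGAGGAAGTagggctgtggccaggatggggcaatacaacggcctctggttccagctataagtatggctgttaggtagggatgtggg
Prtn3: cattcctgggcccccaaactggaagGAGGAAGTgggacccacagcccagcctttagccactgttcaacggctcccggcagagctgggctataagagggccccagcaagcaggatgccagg
Klra2: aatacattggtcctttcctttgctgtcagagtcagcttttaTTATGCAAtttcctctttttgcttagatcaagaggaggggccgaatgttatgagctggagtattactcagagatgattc
Mcm6 holds the letters at 2 places, 110 and 47 bases before the start. In Elane and Prtn3 the PU.1 letters lie 85 and 95 bases before the RefSeq start. The GENCODE spans of these genes lie 3073 bases apart on chromosome 10. Those spans begin at base 79886247 for Elane and 79874476 for Prtn3, so both windows overlap them and the starts differ between the annotations.

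Of the 49 gained genes, 25 were on a list. The median gained gene was above 10 TPM in 73.7% of BM monocytes, against 8.16% of cMoP, and 7 of the 49 were above 10 TPM in no cMoP. 9 were above 10 TPM in at least 90% of BM monocytes. Plbd1, a lysosomal phospholipase B-like protein, had the widest gap. It was above 10 TPM in 50 of 57 BM monocytes (87.7%, 76.3 to 94.9%) and 1 of 49 cMoP (2.04%, 0.0517 to 10.9%), and ran from 0 to 1858 TPM with a median of 339 TPM in BM monocytes and from 0 to 34.6 TPM with a median of 0 TPM in cMoP. Its mean log2(TPM + 1) was 7.35 ± 2.81 in BM monocytes and 0.22 ± 0.77 in cMoP, a difference of 7.14. Wfdc17, a secreted inhibitor of inflammation, was above 10 TPM in 51 BM monocytes and 4 cMoP, 1 monocyte short of the switched-on limit, and ran from 0 to 3208 TPM with a median of 569.97 TPM in BM monocytes and from 0 to 28.1 TPM with a median of 0 TPM in cMoP. Fn1, fibronectin, was above 10 TPM in 55 BM monocytes (96.5%, 87.9 to 99.6%) and 9 cMoP (18.4%, 8.76 to 32.02%). It ran from 3.42 to 3301 TPM with a median of 1007 TPM in BM monocytes and from 0 to 53.6 TPM with a median of 5.44 TPM in cMoP, so most cMoP held a trace of it. Chil3, a secreted chitinase-like protein, was more scattered, at 73.7% of BM monocytes and 12.2% of cMoP, with a highest BM monocyte at 9641 TPM. Of the 41 secreted effectors, 24 of which passed the filter, 3 were gained (5 by rank) and 0 lost. Ccl6 was the gained one of 19 chemokines (1 by rank), above 10 TPM in 55 BM monocytes and 14 cMoP, and ran from 0 to 8441 TPM with a median of 1678 TPM in BM monocytes and from 0 to 238 TPM with a median of 0 TPM in cMoP. Naaa, which breaks down fatty acid ethanolamides in lysosomes, was present in 87.7% of BM monocytes, against 24.5% of cMoP.

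Paired receptors of the cell surface made up the largest group of gained genes on these lists. 5 of 35 paired immunoglobulin-like and SIRP receptor genes, of which 28 passed the filter, were gained (7 by rank) and 1 lost. Lilrb4, an inhibitory receptor, was above 10 TPM in 54 BM monocytes (94.7%, 85.4 to 98.9%) and 12 cMoP, and ran from 0 to 3544 TPM with a median of 841 TPM in BM monocytes and from 0 to 282 TPM with a median of 0 TPM in cMoP. Gp49a, its close relative, was above 10 TPM in 46 BM monocytes and 4 cMoP. Pira2, an activating receptor, stood at 77.2% of BM monocytes and 4.08% of cMoP. Sirpb1c and Sirpb1b, signal-regulatory proteins, were above 10 TPM in 40 and 37 BM monocytes and in 0 of 49 cMoP (0%, 0 to 7.25%). Sirpb1c ran from 0 to 2823 TPM with a median of 122 TPM in BM monocytes and was listed at 0 in every cMoP. Near-identical copies exist in these families, and the counting can split their reads, so the member that carries the signal is uncertain. Trem3, an activating receptor of the same type, was the lost member, with 0 lost by rank.

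C-type lectin receptors gave the highest share of gained genes of any list, 4 of 23 (5 by rank), with 15 past the filter and 0 lost. Clec4a3 was above 10 TPM in 45 BM monocytes (78.9%, 66.1 to 88.6%) and 1 cMoP (2.04%, 0.0517 to 10.9%), and Klra2 in 38 BM monocytes and 0 cMoP. Clec4a1, which lies next to Clec4a3 on chromosome 6, was above 10 TPM in 34 BM monocytes and 0 cMoP. Cd302 stood at 66.7% of BM monocytes and 14.3% of cMoP. Other gained surface genes were Msr1, a scavenger receptor, at 59.6% of BM monocytes and 2.04% of cMoP, and Cd86, a costimulatory ligand for T cells, at 61.4% of BM monocytes and 4.08% of cMoP. Cd86 was the gained one of 16 genes on the list of MHC class II presentation (3 by rank), and Cd74, the invariant chain, was above 10 TPM in 30 BM monocytes and 7 cMoP. Tlr13, which senses bacterial ribosomal RNA, was above 10 TPM in 26 BM monocytes and 0 cMoP. Its list of 35 had 1 lost member (2.86%, against 5.78% of all genes), the kinase gene Irak1 (0 by rank). 3 of 28 tetraspanin and surface glycoprotein genes (10.7%, against 5.78% of all genes) were lost (1 lost and 1 gained by rank). Spn, the sialoglycoprotein CD43, was present in 11 BM monocytes and 43 cMoP. Cd93, a C-type lectin-like glycoprotein, was present in 19 BM monocytes and 48 cMoP. Fgr, a SRC family kinase of myeloid cells, was above 10 TPM in 39 BM monocytes (68.4%, 54.8 to 80.1%) and was listed at 0 in every cMoP.

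Both gained genes that were above 10 TPM in every BM monocyte, S100a6 and Lgals3, came from the list of S100, annexin and galectin genes. S100a6, a calcium-binding protein gene, was the one gene (0.00832% of those compared) whose lowest BM monocyte lay above the highest cMoP. It ran from 259 to 2108 TPM with a median of 871 TPM in BM monocytes and from 0 to 199 TPM with a median of 8.07 TPM in cMoP, a difference of 6.55 in mean log2(TPM + 1). In the other direction 2 genes (0.0166%), Mpo and Prtn3, showed no overlap. S100a4, its neighbour on chromosome 3, was above 10 TPM in 54 BM monocytes (94.7%, 85.4 to 98.9%) and 9 cMoP. Lgals3, galectin 3, was above 10 TPM in every BM monocyte and in 22 cMoP, and ran from 81.4 to 5022 TPM with a median of 1378 TPM in BM monocytes and from 0 to 1205 TPM with a median of 6.49 TPM in cMoP. 3 of 25 genes of this list (12%, against 0.407% of all genes) were gained (3 by rank). 1 (4%, against 5.78% of all genes) was lost, Anxa3, annexin A3, at 42.1% of BM monocytes and 97.96% of cMoP. Of 17 MS4A family genes Ms4a3 was lost (5.88%, close to the 5.78% of all genes, and 1 by rank). Ms4a4a was gained (5.88%, against 0.407% of all genes, and 2 by rank). Ms4a4a was above 10 TPM in 57.9% of BM monocytes, against 4.08% of cMoP. Ms4a4c was above 10 TPM in all 57 BM monocytes and 25 cMoP, and was chosen after its values were seen.

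Interferon response genes were higher without most of them being called. 3 of 54, of which 47 passed the filter, were gained (9 by rank) and 0 lost, while 47 had a higher mean in BM monocytes and 7 a lower one, with a median difference of 1.07 against -0.62 for all compared genes. Ifi27l2a was above 10 TPM in 53 BM monocytes (92.98%, 83.00 to 98.1%) and 9 cMoP, and ran from 0 to 7705 TPM with a median of 812 TPM in BM monocytes and from 0 to 496 TPM with a median of 0 TPM in cMoP. Ifitm6, of the interferon-induced transmembrane proteins, stood at 92.98% of BM monocytes and 22.4% of cMoP. Slfn1, of the Schlafen family, was above 10 TPM in 37 BM monocytes and listed at 0 in every cMoP. Irf7, the factor that amplifies interferon production, was short of the limit at 54.4% of BM monocytes and 8.16% of cMoP. Cells differed widely: a BM monocyte held 10 to 45 (median 21) of the 54 genes above 10 TPM and a cMoP 3 to 24 (median 15), and 15 BM monocytes lay above the highest cMoP. The interferon-stimulated response element, read as a pair of GAAA repeats with any 2 bases between them, stood in 17 of 42 promoters of the list (40.5%), 2 of 34 gained promoters and 3.04% of all.

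Transcription factors were read as a list of 112 myeloid regulators, 88 of which passed the filter. 2 (1.79%, against 0.407% of all compared genes) were gained (4 by rank). 3 (2.68%, against 5.78% of all compared genes) were lost (2 by rank). Id2, an inhibitor of E proteins, was above 10 TPM in 44 BM monocytes (77.2%, 64.2 to 87.3%) and 4 cMoP (8.16%, 2.27 to 19.6%). Atf3, a stress-induced factor that restrains inflammatory genes, was above 10 TPM in 40 BM monocytes (70.2%, 56.6 to 81.6%) and 2 cMoP, and ran from 0 to 2347 TPM with a median of 86.3 TPM in BM monocytes. Myb, a factor required in blood progenitors, was above 10 TPM in 3 BM monocytes (5.26%, 1.10 to 14.6%) and 37 cMoP. Myc, which drives growth and ribosome production, was present in 2 BM monocytes (3.51%, 0.428 to 12.1%) and 33 cMoP (67.3%, 52.5 to 80.1%). Tfec, of the MiT family of lysosomal gene regulators, stood at 10.5% of BM monocytes and 75.5% of cMoP. Of the NF-kB feedback and early response list, 1 of 39 was gained (5 by rank), Atf3 again, and 33 had a higher mean. Btg2, an antiproliferative early response gene, was above 10 TPM in 85.96% of BM monocytes, against 40.8% of cMoP.

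332 genes were above 10 TPM in at least 90% of both populations, with a median difference of -0.53. 10 of them (3.01%) were higher in BM monocytes by at least 2 on the log2 scale, and 13 (3.92%) were lower. Lyz2, lysozyme, was far ahead of the rest. It ran from 2401 to 92184 TPM with a median of 52936 TPM in BM monocytes and from 3.26 to 5659 TPM with a median of 637 TPM in cMoP, with mean log2(TPM + 1) of 15.51 ± 0.78 in BM monocytes and 9.32 ± 1.99 in cMoP, a difference of 6.20. Only 1 BM monocyte fell to the range of the cMoP. Ccr2, the receptor through which monocytes leave the marrow, was above 10 TPM in 46 of 49 cMoP, yet it ran from 167 to 4403 TPM with a median of 1244 TPM in BM monocytes and from 1.15 to 1125 TPM with a median of 207 TPM in cMoP. Alox5ap, which presents arachidonic acid for leukotriene synthesis, had a median of 2139.9 TPM in BM monocytes against 534 TPM in cMoP. Cyba, a membrane subunit of the phagocyte oxidase, had medians of 1758 TPM in BM monocytes against 414 TPM in cMoP. The others were Anxa2, Cd52, Ctsc, H2-T23, Prr13 and Sp100. Of the 13 lower ones Npm1, nucleophosmin, had a median of 613 TPM in BM monocytes against 2289 TPM in cMoP, and Gas5, a small nucleolar RNA host, 229 TPM in BM monocytes against 1414 TPM in cMoP. Ptma, Hsp90ab1, Eif5a, Hmgb1 and Pabpc1 were also lower by at least 2. These genes were chosen by their level after values were seen.

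385 genes were above 10 TPM in at least 90% of BM monocytes, and the cMoP already held most of them. Of these, 332 were above 10 TPM in at least 90% of cMoP as well, 28 more in 75 to 90% and 15 in 50 to 75%. In cMoP 4 more stood at 25 to 50%, 6 at 10 to 25% and 0 at 10% or less. The cMoP had 1067 such genes, of which 332 stood at 90% or more in BM monocytes too, 232 at 75 to 90%, 269 at 50 to 75%, 182 at 25 to 50%, 46 at 10 to 25% and 6 at 10% or less. 6 function lists had no member past 50 points in either direction, against 0.407% gained and 5.78% lost over all compared genes. They were 58 actin and motility genes (56 past the filter), 8 Fc gamma receptor genes (6) and 25 chemoattractant receptor genes (11). The others were 17 genes of MHC class I presentation (17), 17 Ly6 family genes (9) and 35 cytokine receptor genes (30). At those shares a short list can lack called genes, and levels did differ. Means were higher for 6 Fc gamma, 17 chemoattractant and 34 actin genes, and lower for 1, 4 and 24. By rank 3 actin, 3 Ly6 family and 3 cytokine receptor genes were gained. Within them Fcgr1, the high-affinity receptor for IgG, was above 10 TPM in 17 BM monocytes and 0 cMoP, and Cxcr4, the receptor that holds cells in the marrow, in 19 BM monocytes and 39 cMoP. Plaur, the urokinase receptor, was above 10 TPM in 49 BM monocytes and 25 cMoP. Members of other lists came near the limit too. Itgb2, the beta subunit of the leukocyte integrins, was above 10 TPM in 87.7% of BM monocytes, against 40.8% of cMoP. Cd68, a lysosomal membrane glycoprotein, was above 10 TPM in all 57 BM monocytes and 30 cMoP, and Lsp1, an actin-binding protein of leukocytes, in all 57 BM monocytes and 31 cMoP. Vcan, the matrix proteoglycan versican, was above 10 TPM in 26 BM monocytes and listed at 0 in every cMoP.

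Levels were also read in the cells that held a gene above 10 TPM. 598 of the 695 lost genes were above 10 TPM in at least 5 cells of each population. In those cells their median TPM was 106 in BM monocytes and 119 in cMoP, a median log2 ratio of -0.24, with 250 genes higher and 348 lower. For the 23 gained genes with as many cells it was 440.3 TPM in BM monocytes against 64.5 TPM in cMoP, with a median log2 ratio of 2.49, and all 23 were higher. Over all 7032 compared genes with as many cells the median log2 ratio was 0.36. These levels were read above the same limit that made the calls, in genes with enough such cells, and leave out the other members.

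The 25 most gained and the 25 most lost genes set every cell on 1 side, which their choice in these cells fixes. A BM monocyte held 11 to 24 of the 25 gained genes (median 21) above 10 TPM and 0 to 13 of the 25 lost genes (median 2). A cMoP held 0 to 8 of the gained (median 3) and 21 to 25 of the lost (median 24). 3 BM monocytes kept 10 or more lost genes, and 12 kept none. Cells that took no part in the choice can be read against this. The 38 blood monocytes held 4 to 25 gained (median 20) and 0 to 4 lost genes (median 1), and all 38 had more gained than lost. The 11 left-out cMoP with much mitochondrial RNA held 1 to 6 gained (median 2) and 9 to 21 lost genes (median 15). The 6 cMoP without a flow cell had a median of 9046 genes above 1 TPM. They held 9 to 13 gained (median 12) and 24 or 25 lost genes. These 6 differed from the compared cMoP in other ways too. Cd74 ran from 3424 to 7890 TPM in them, against 0.71 to 29.8 TPM in the 49 compared. Ahnak was above 10 TPM in 100% of them, against 18.4%. Whether each of them holds 1 cell like the compared cMoP was not tested. None of the 17 left-out cMoP had more gained than lost. Over the full sets, 44 of 49 gained genes and 2 of 695 lost genes were above 10 TPM in at least 50% of blood monocytes. Blood and BM monocytes shared a flow cell and lane, so run and population cannot be told apart there either.

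**Figure D5:**
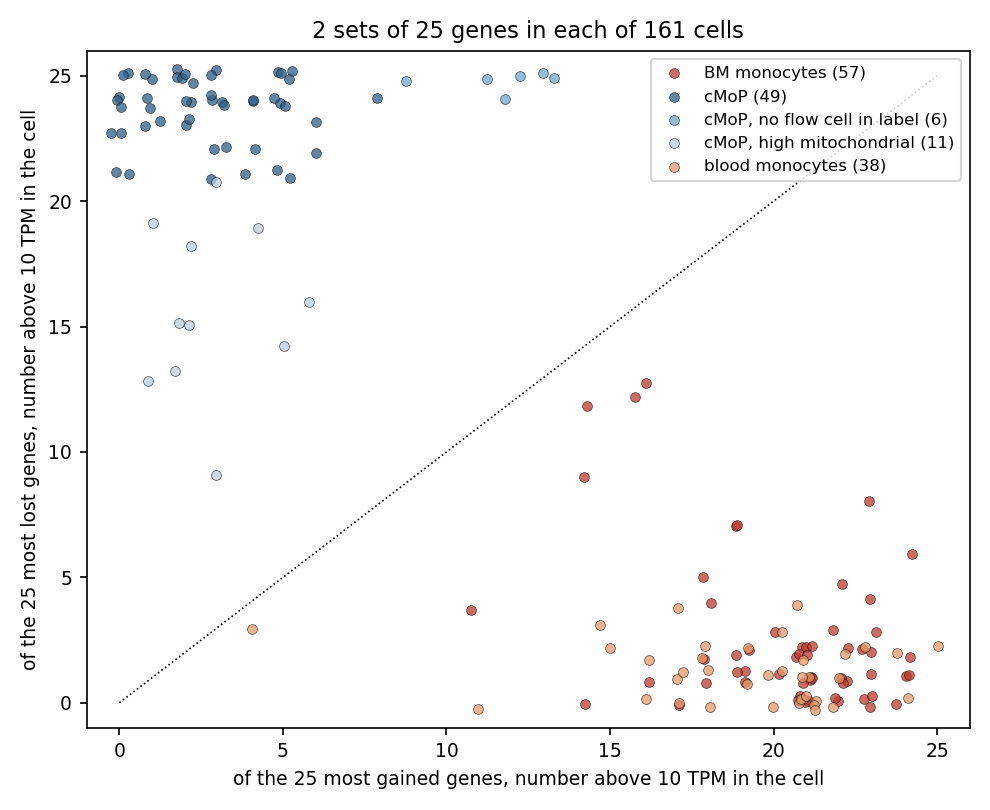
Number of the 25 most gained genes (x axis) and of the 25 most lost genes (y axis) above 10 TPM in each of the 161 cells, with points shifted at random by less than 1 gene. All monocytes lie below the dotted line of equal numbers and all cMoP above it, with high-mitochondrial cMoP down to 9 lost genes, BM monocytes up to 13 lost genes, the 6 cMoP without a flow cell at 9 to 13 gained genes, and 1 blood monocyte low on both axes.

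Along the chromosomes some called genes were next to each other in gene order. No limit was set on distance, and the lost pair Suclg1 and Mrpl19 lay 8680940 bases apart. Of 41 protein-coding gained genes, 6 (14.6%) had another gained gene next to them among the compared protein-coding genes, against 0.842% of all 9268 such genes. These were Sirpb1b and Sirpb1c, S100a4 and S100a6, and Clec4a1 and Clec4a3, which are members of the same families and can share reads. Their gaps were 220080, 6837 and 17896 bases. For lost genes it was 111 of 647 (17.2%), against 13.4% of the 9268. Elane and Prtn3 were among them, and so were the overlapping Ppat and Paics, both enzymes of purine synthesis, whose pairs were picked out after their values were seen. Exons of gained genes covered a median of 2684.5 bases, those of lost genes 3870.5 bases and those of all compared genes 3967 bases.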

How the data were processed

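Single cells were captured on Fluidigm C1 chips, their RNA was reverse transcribed with oligo-dT primers, and libraries were made with the Nextera XT kit, per the labels' protocols. The deposited values are TPM that the authors scaled within each cell; column sums lay between 997939 and 999955. RSEM 1.2.19 and GRCm38 are named in the submitters' processing notes, while aligner and annotation were not given in the sources used here. TPM keep no read depth, so depth per cell is unknown.

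The table holds 43280 rows, of which 18780 were 0 in all cells, and 0 columns matched no sample. Groups follow the labels. The 12025 rows above 1 TPM in at least 10% of cells (mean of both populations' shares) were compared by the share of cells above 10 TPM, with exact Clopper-Pearson 95% intervals, and by mean log2(TPM + 1), a scale that understates differences of low genes. A gene that passed this filter through one population alone had to differ, so counts over list members include members that did not pass. With 1 sample per population, no test was run. No doublet caller was run. Scripts used Python 3.11.15, numpy 2.4.6, pandas 2.3.3, scipy 1.17.1 and matplotlib 3.10.9 and were tested on simulated data. Gene positions come from GENCODE vM21 and promoters from RefSeq, matched by symbol.

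The comparison and the 60 gene lists were chosen with earlier results of these data known. Genes named are the 25 with the largest difference in share in each direction, up to 4 per list, regulators past 50 points, genes of the sort gate, genes without overlap, and the 3 nearest the 90% and 10% limits. Rows with predicted, ribosomal or histone names were left out of that rule. Lyz2, Ccr2 and Ms4a4c, and members named only because they were called or lay next to each other, were chosen after their values were seen. Alternatives varied the cells, the TPM threshold, the scaling, the share limits, the filter, the pseudocount and the averaging.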

Additional observations from a re-analysis of the deposited data

How the results depend on the processing

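No named gene past 50 points changed sign under any alternative run. List medians near 0, such as that of the cytokine receptors, did so with scaling and are given no direction. No gene was switched on in nearly all cells as described, but 3 were among cells with 4500 to 6000 genes, 2 above 1 TPM, 1 above 25 TPM, 4 among the 3000 highest rows and 9 at limits of 80% and 20%. Switched-off genes numbered 3 by rank, 81 at 80% and 20% and 2 at 95% and 5%, against 6. Gained genes numbered 123 among cells with 4500 to 6000 genes and 200 by rank, against 49. Lost genes numbered 441 with all 66 cMoP, 358 with the libraries of high mitochondrial share, 454 among cells with 4500 to 6000 genes and 183 by rank, against 695. The median log2 difference of -0.62 became -0.70 with the cMoP without a flow cell, -0.52 with those of high mitochondrial share, -0.11 among cells with 4500 to 6000 genes, -0.51 under median-ratio scaling, -0.65 after rescaling without mitochondrial, ribosomal and the 20 top rows, -0.071 over all rows above 0, -0.99 with a filter at 25% of cells, -1.11 with a pseudocount of 0.1, -0.21 with a pseudocount of 10, and -0.021 when mean TPM were compared as a log2 ratio. The cause was not tested. Of the 25 most gained genes 24 or 25 kept 50 points under every alternative run, and of the 25 most lost 22 to 25. No paired analysis was possible because each population is 1 sample and no label pairs cells. Leaving out a replicate could not be run for the same reason.

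Counts past a limit depend on the limit, those of the gene lists included. Capture losses were not measured. Without read counts, absence cannot be given a limit per cell.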
